A study of Mus musculus with 6 samples.

Results

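The Rab GTPases, the DENN-domain proteins that activate them and the TBC1D proteins that switch them off were examined in mouse T-ALL. T-ALL is an acute leukemia of T-cell precursors, here with Hes1 intact or after its induced loss. Genes were taken by symbol: Dennd or Tbc1d followed by a number, Rab followed by a number, and Madd. Of 105 such genes with a probe on the array, 70 had a probe with a detection p under 0.05 on at least 3 of the 6 arrays and were tested, among 8836 named genes tested in all. They comprised 12 of 16 DENN genes, 37 of 59 Rab genes and 21 of 30 Tbc1d genes. Detection and brightness over all 6 arrays chose the probes. The families were singled out because Dennd3 measured higher in the group with induced loss of Hes1. The difference in Dennd3 is therefore given as a description with no p-value.

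The leukemias were made by retroviral transduction of lineage-depleted bone marrow with ΔE-NOTCH1, an activated form of the NOTCH1 oncogene, and grew in irradiated NRG hosts, an immunodeficient strain. Cells of both groups carried Hes1flox/flox and Rosa26 Cre-ERT2, a recombinase expressed in all cells and switched on by tamoxifen compounds. The WT group, with Hes1 intact, received ethanol, and the KO group 4-hydroxy-tamoxifen, in each case for 36 hours, with 3 biological replicates each. The labels do not say whether replicates came from separate leukemias or cultures, so p-values cover no more than the spread seen among these arrays, which may be technical. The 36-hour treatment was of cultured cells, while tamoxifen injection of secondary recipients is also described. Drug, Cre activity and Hes1 loss came together in KO and cannot be told apart.

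Rab proteins are small GTPases that mark membranes of the cell, each on its own set of organelles. They are anchored by lipid tails and act when bound to GTP, in which state they recruit tethers, motors and other effectors. DENN-domain proteins are exchange factors that load particular Rabs with GTP, and most TBC-domain proteins speed the hydrolysis of that GTP. In T cells, Rab-driven traffic recycles the T-cell receptor and nutrient receptors and carries lytic granules to the surface.

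Hes1, a transcriptional repressor activated by NOTCH1, was measured first as a check of the labels. Its unnormalised intensity ran from 2075.9 to 2607.8 in WT and from 120.8 to 146.1 in KO, where it was detected on 0 arrays. Mean intensity per probe was 713.248, 707.85 and 702.682 on WT replicates 1 to 3 and 519.662, 630.505 and 687.143 on KO replicates 1 to 3. By the mean, every KO array was thus dimmer than every WT array, although median intensities overlapped. Per array, 15807 to 16685 probes were detected. KO replicate 1 was the dimmest and stood apart, with a mean correlation of 0.981 with the other arrays over all features, against 0.990 to 0.991 for the others. Of 10 T-lineage markers, 8 had a probe and 7 of these, Cd3d, Cd3e, Cd3g, Thy1, Cd2, Ptcra and Rag1, were detected on all 6 arrays, while Cd5 was detected on 0. The summed linear signal of the 5 myeloid markers with a probe was 136 to 138 in WT and 150 to 178 in KO, near background in both. Lyz2, Itgam and Mpo were not detected on any array. Csf1r was detected on 0 WT arrays and 1 KO array, and Elane on 0 and 2. The T-lineage sum was 87311 to 95082 in WT and 89798 to 98319 in KO. That of 5 stromal and endothelial markers was 725 to 902 in WT and 973 to 1298 in KO, with Col1a1 not detected on any array and Pecam1 the one marker of that list detected on all. Pecam1, at a mean log2 intensity of 9.40 in WT and 9.93 in KO, made up most of that sum. Summed signals of the B-lineage and erythroid lists overlapped between groups, and the NK list measured 60.4 to 69.5 in WT and 51.8 to 57.3 in KO. The NK sum lay near background, with Ncr1 detected on 0 arrays and Klrb1c on 2 WT and 0 KO arrays. The part of these shifts in the results below was not tested. In such bulk RNA, fewer cells of a type and less RNA per cell cannot be told apart.

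By the brightest probe of each DENN gene, Dennd3 measured 2.29-fold higher in KO and Madd 1.45-fold higher. The other 10 lay closer to WT or differed mainly on KO replicate 1. Of the 11 other than Dennd3, 0 passed an adjusted p of 0.05, with a smallest adjusted p of 0.271 in limma, where 0.0623% of all features and 0.0792% of named genes passed. Of these 11 genes 7 had higher and 4 lower values in KO, and their median log2 difference was 0.12, against 0.0017 over all named genes. Without KO replicate 1 that median was -0.0032, with 4 higher and 7 lower.

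Dennd3 encodes an exchange factor for Rab12, which acts in degradative traffic from recycling endosomes and in autophagy. Its unnormalised intensity was 1646.4, 1578.3 and 1466.2 in WT and 2887.2, 2736.3 and 2967.9 in KO, in the order of replicates 1 to 3 as in all such sets of values here. After normalisation its log2 intensity was 10.43, 10.39 and 10.29 in WT and 11.89, 11.44 and 11.38 in KO. Every KO value lay above every WT value, on both scales, with a gap of 0.95 on the normalised log2 scale between the closest pair of arrays. The group means were 10.37 ± 0.07 and 11.57 ± 0.28 (SD, n = 3 each), a log2 difference of 1.20 ± 0.155 (SE). Among named genes it ranked 7 from the top by this difference. Over 16 other settings of the processing the difference ran from 0.997 with median scaling to 1.29 without KO replicate 3. It was 1.04 without KO replicate 1. Some of these settings, such as the replicate block, could not change the difference. One probe, ILMN_1224129, measured the gene.

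Madd encodes an exchange factor for Rab3 and Rab27 proteins that also binds the TNF receptor. It was the only other DENN gene beyond 0.5 on the log2 scale by the brightest probe. Its normalised log2 intensity was 6.112, 5.999 and 6.224 in WT and 6.817, 6.514 and 6.598 in KO, so the groups did not overlap. The log2 difference was 0.53 ± 0.13 (SE), which did not pass the test (adjusted p 0.271 in limma). Its probe lay near background, with unnormalised intensities of 195.9 to 207.1 in WT and 201.5 to 232.3 in KO, which overlap. The difference was 0.21 both with no background correction and with the authors' log2 values, the lowest over 16 settings.

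Dennd6b, Dennd1c and Dennd4b also had higher KO means, and in each the excess lay on KO replicate 1. Dennd6b, whose product activates Rab14, measured 8.80, 9.51 and 8.83 in WT and 10.22, 8.92 and 9.04 in KO (normalised log2 intensity). Dennd1c, which encodes a Rab35 exchange factor that also binds actin, measured 9.41, 9.57 and 9.41 in WT and 10.56, 9.31 and 9.49 in KO. Dennd4b, which encodes a Rab10 exchange factor, measured 7.64, 7.77 and 7.63 in WT and 8.51, 7.70 and 7.78 in KO. The groups overlapped in all 3 genes. Their log2 differences of 0.35, 0.32 and 0.31 became -0.07, -0.07 and 0.06 without KO replicate 1. A second Dennd1c probe gave -0.01, and a second Dennd4b probe gave 0.23.

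Dennd4a, another Rab10 exchange factor, measured 9.26, 9.11 and 9.28 in WT and 9.48, 9.34 and 9.31 in KO, without overlap, for a log2 difference of 0.16 ± 0.11 (SE). It was 0.11 without KO replicate 1 and -0.04 with median scaling, under which the median of all features moved to -0.17. By the brightest probe, the lowest difference among DENN genes was that of Dennd1a, -0.16 ± 0.11, whose product activates Rab35 on endocytic membranes. On that probe Dennd2d, Dennd11, Dennd2a, Dennd6a and Dennd10 lay between -0.09 and 0.12. Dimmer Dennd10 probes gave 0.01 and, for one found on 5 arrays, -0.51. Dennd2a sat at the edge of the detection rule, found on 3 arrays with intensities of 144.3 to 176, while Dennd1b and Dennd5b, just outside it, were found on 2 arrays with intensities of 139.5 to 170.5 and 156.3 to 165.9. Tbc1d31 was the other member found on 3 arrays, and Rab34 and Rab42 the others found on 2.

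**Figure D1:**
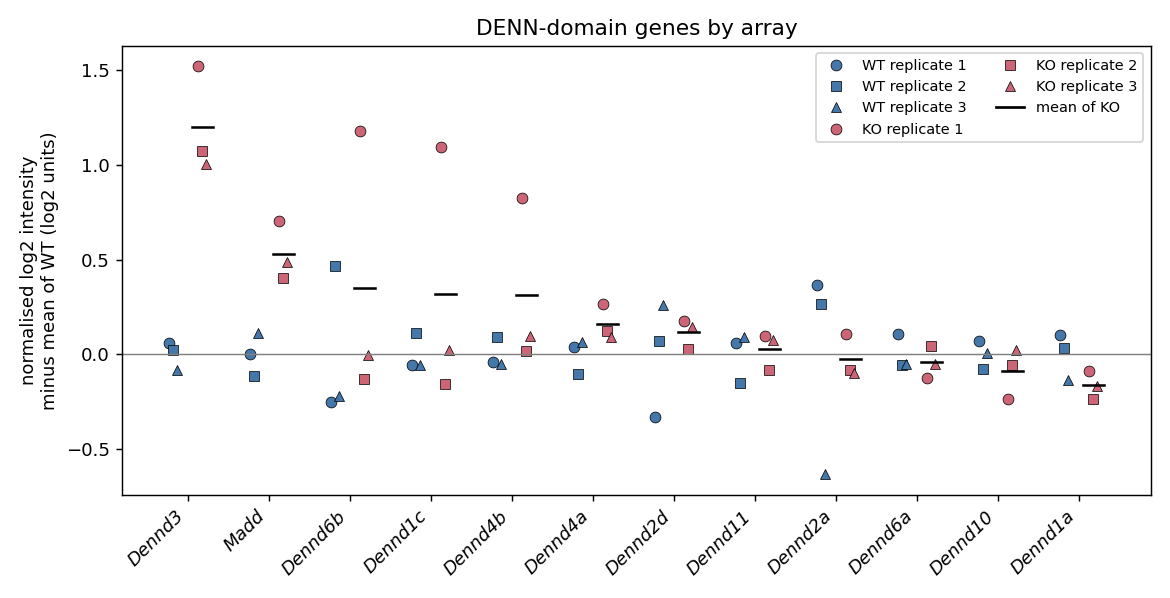
Normalised log2 intensity of each tested DENN gene on each array, as the difference from the mean of the 3 WT arrays (y axis, log2 units), with genes ordered by the KO mean (black bar). All 3 KO arrays lie clear of WT for Dennd3 and Madd, while for Dennd6b, Dennd1c and Dennd4b KO replicate 1 lies above the other KO arrays.

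The Rabs that DENN proteins are reported to activate did not pass the test. Rab12, the substrate of DENND3, had unnormalised intensities of 388.3, 366.2 and 377.5 in WT and 226.6, 357.1 and 380.9 in KO. On the normalised log2 scale it measured 7.93, 7.78 and 7.87 in WT and 7.20, 7.97 and 7.88 in KO, so that the groups overlapped and KO replicate 1 alone was low. Its log2 difference was -0.18 ± 0.20 (SE), with a 95% interval of -0.66 to 0.30, or 0.635-fold to 1.23-fold, and it was 0.06 without KO replicate 1. These intervals come from the limma fit and hold at most for the spread between these arrays.

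For the substrates of the other DENN proteins, differences were of similar size. Rab27a, which carries lytic granules to the immune synapse and is loaded by MADD, measured 11.17, 11.34 and 11.34 in WT and 11.37, 11.36 and 11.41 in KO, with a log2 difference of 0.09 ± 0.10 (SE). Its groups did not overlap, but the gap was 0.02. Rab3a, a regulated-secretion Rab also loaded by MADD, differed by 0.16 ± 0.11. Rab35, which returns cargo from endosomes to the surface and is loaded by DENND1 proteins, differed by -0.09 ± 0.11. Rab10, the DENND4 substrate that moves vesicles to the plasma membrane, differed by -0.12 ± 0.20, and Rab14, the DENND6 substrate on Golgi and recycling membranes, by -0.16 ± 0.18. Rab9, which returns mannose 6-phosphate receptors from late endosomes, differed by 0.01 ± 0.14. Rab8a and Rab13, which serve delivery to the plasma membrane and to cell junctions, differed by -0.01 ± 0.11 and 0.21 ± 0.20. Rab39 and Rab27b, found on 1 and 0 arrays, were not tested.

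By the brightest probe of each of the 37 Rab genes, the log2 differences ran from -0.25 for Rab21 to 0.21 for Rab13. On that probe 37 of 37 lay within 0.25 of zero, against 77.5% of named genes. The band of 0.25 was not among the planned counts, and Rab21, at -0.246, lay just inside it. Dimmer probes of Rab1b, Rab28 and Rab6a reached -0.61 (found on 3 arrays), -0.45 and -0.28. The highest dimmer Rab probe was at 0.245, for Rab19. By the brightest probe, 18 of the 37 genes were higher and 19 lower in KO, with a median of -0.0094. None passed the test (0 of 37, background 0.0792% of named genes), and 0 had an unadjusted p under 0.05 in limma, against 8.78% of named genes. The smallest adjusted p was 0.657. The 95% intervals reached from -0.75 for Rab5a to 0.67 for Rab13, that is, 0.595-fold to 1.60-fold, and smaller changes of single Rab genes were not resolved. With median scaling 22 of 37 lay within 0.25 of zero and 35 within 0.25 of the shifted median of all features, and without KO replicate 2 the count was 30. Without KO replicate 1, 27 of 37 were higher in KO and the median was 0.06.

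Grouped by the membranes they serve, 0 Rab genes passed the test in any group. Of 7 on the endoplasmic reticulum and Golgi, 2 were higher and 5 lower, from -0.19 for Rab1b, which drives transport to the Golgi, to 0.17 for Rab43. The others there were Rab1a, Rab2a, Rab6a, Rab18 and Rab33b. Of 6 early endosome Rabs, 3 were higher and 3 lower, from -0.25 for Rab21, which traffics integrins, to 0.14 for Rab5b. They included Rab5a and Rab5c, which drive early endosome fusion, and Rab22a and Rab31. Rab21 measured 8.836, 8.997 and 8.762 in WT and 8.315, 8.838 and 8.704 in KO, overlapping, and its difference was -0.09 without KO replicate 1. Of 6 recycling Rabs, 3 were higher and 3 lower. Rab11a, the main Rab of recycling endosomes, measured 7.26, 7.38 and 7.39 in WT and 7.36, 7.48 and 7.80 in KO, with a log2 difference of 0.20 ± 0.14 (SE). Rab4a, of the fast recycling route, measured 7.92, 8.02 and 7.96 in WT and 8.07, 8.10 and 8.17 in KO, without overlap, while its paralog Rab4b was at -0.15 ± 0.14. Of 4 Rabs of late endosomes and autophagy, Rab7, Rab12 and Rab24 were lower and Rab9 higher, with Rab7, which matures late endosomes, at -0.13 ± 0.11 and its other probes at -0.15 and -0.22.

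Of 8 Rabs of secretory vesicles and delivery to the plasma membrane, 5 were higher and 3 lower, between -0.18 for Rab3d and 0.21 for Rab13, with Rab8b and Rab37 at 0.02 and 0.12. Of the other 6, Rab39b had non-overlapping groups, at 6.005, 5.884 and 5.893 in WT and 6.042, 6.071 and 6.151 in KO, with a log2 difference of 0.16 ± 0.10 (SE). It had the smallest p among Rab genes. Rab29, a Rab linked to the kinase LRRK2, was at -0.17 ± 0.15, and Rab19, Rab23, Rab28 and Rab40c lay between -0.02 and 0.13. Groups did not overlap in 3 of 37 Rab genes, Rab4a, Rab27a and Rab39b, or 8.11%, against 16.3% of named genes.

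**Figure D2:**
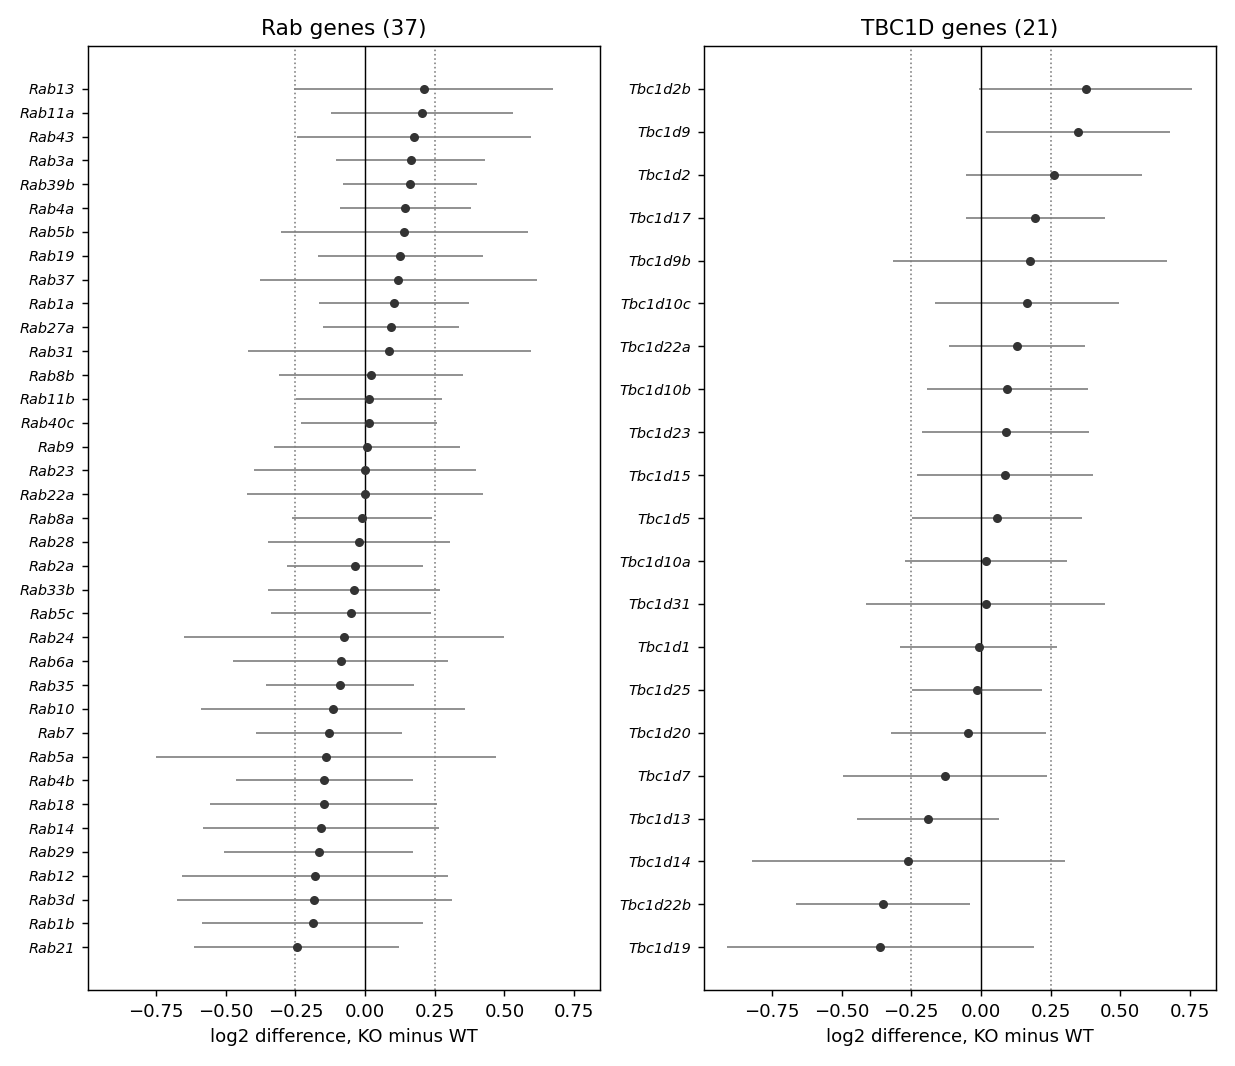
Log2 difference, KO minus WT, of each tested Rab gene (left) and Tbc1d gene (right) on the x axis, with points for the estimate and bars for the 95% interval from the limma fit of 3 against 3 arrays. Dotted lines mark 0.25 in either direction, inside which all 37 Rab estimates and 15 of 21 Tbc1d estimates lie.

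Among the 21 Tbc1d genes, 13 had higher and 8 lower values in KO, with a median of 0.06 and a range of -0.36 to 0.38. None passed the test (0 of 21), and 2 had an unadjusted p under 0.05 in limma, where 8.78% of named genes had such a p. They were Tbc1d22b, with an adjusted p of 0.481 in limma, and Tbc1d9. Tbc1d9 passed the detection filter only through the KO arrays, so no p-value is given for it, and the counts include it. Tbc1d2b, a close relative of the Rab7 regulator gene Tbc1d2, measured 8.99, 8.97 and 8.99 in WT and 9.72, 9.18 and 9.18 in KO. Its groups did not overlap, with a log2 difference of 0.38 ± 0.16 (SE) that was 0.19 without KO replicate 1, and a second probe gave 0.22. Tbc1d2 itself, whose product inactivates Rab7, measured 6.53, 6.58 and 6.63 in WT and 7.09, 6.755 and 6.68 in KO, with a difference of 0.26 ± 0.14, or 0.14 without KO replicate 1. In both genes all KO values lay above WT and KO replicate 1 was the highest.

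Tbc1d9 measured 5.05, 5.29 and 5.10 in WT, where it was detected on 1 array, and 5.70, 5.50 and 5.28 in KO, where it was detected on 3. These values overlapped, its unnormalised intensities ran from 155.1 to 169.9, and the log2 difference of 0.35 ± 0.14 (SE) became 0.10 with the authors' log2 values. Tbc1d22b was the lowest of the named Tbc1d genes with separated groups. It measured 6.40, 6.57 and 6.35 in WT and 6.14, 5.88 and 6.25 in KO, a difference of -0.35 ± 0.13, and its near relative Tbc1d22a was at 0.13 ± 0.10. Tbc1d13, which encodes a Rab35 inactivator, was also lower without overlap, at 10.05, 9.91 and 9.85 in WT and 9.81, 9.76 and 9.67 in KO, a difference of -0.19 ± 0.11. Tbc1d17 was higher without overlap, at 9.16, 9.26 and 9.05 in WT and 9.39, 9.37 and 9.31 in KO, a difference of 0.20 ± 0.11 that was 0.00073 with median scaling. Tbc1d19 was at -0.36 ± 0.24 with overlapping groups.

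The remaining 13 Tbc1d genes lay between -0.26 for Tbc1d14, an autophagy regulator gene detected on 5 arrays, and 0.18 for Tbc1d9b. They included Tbc1d10c, which encodes carabin, an inhibitor of calcineurin and Ras in lymphocytes. It measured 13.09, 13.21 and 13.06 in WT and 13.55, 13.09 and 13.23 in KO, a difference of 0.17 ± 0.14 (SE), and its other probes ran from -0.05 to 0.17. Tbc1d7, the third subunit of the TSC complex that restrains mTORC1, was at -0.13 ± 0.16. Tbc1d15 and Tbc1d5, both regulators of Rab7, were at 0.09 ± 0.14 and 0.06 ± 0.13, and Tbc1d20, which inactivates Rab1, at -0.05 ± 0.12.

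Over the 69 members other than Dennd3, 0 passed an adjusted p of 0.05 (background 0.0792%), and 3 had an unadjusted p under 0.05 in limma, where 8.78% of named genes and 9.27% of all features did. These were Madd and Tbc1d9, higher, and Tbc1d22b, lower. Since Tbc1d9 passed the detection filter only through the KO arrays, its p is no test. Groups did not overlap in 10 of the 69, or 14.5%, against 16.3% of named genes. Of these, 8 were higher in KO and 2 lower, where 8.48% of named genes were higher and 7.85% lower without overlap. Beyond 0.5 on the log2 scale by the brightest probe lay 1, Madd, or 1.45%, against 3.59% of named genes. Of the 69, 38 were higher and 31 lower, or 55.1% higher, against 50.4% of named genes. These shares lay near or below their backgrounds, and the median of the 69 was 0.01 on the log2 scale.

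**Figure D3:**
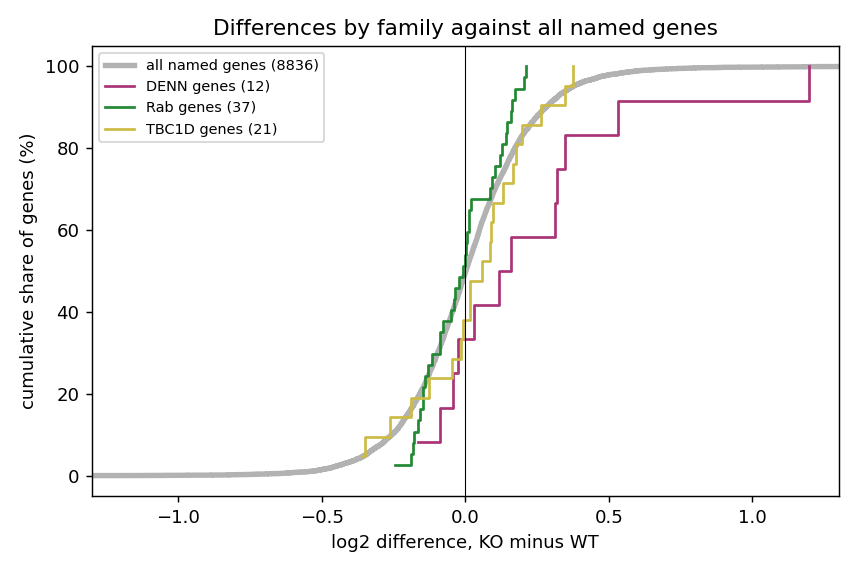
Cumulative share of genes (y axis, %) by log2 difference, KO minus WT (x axis), for the 3 families and for all 8836 named genes in grey. The Rab curve is steeper than that of all genes and the DENN curve lies to the right of it, its last step being Dennd3 at 1.20.

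KO replicate 1 stood apart over the members too. Of the 70 members, 21 had their lowest value of the 6 arrays on KO replicate 1 and another 21 their highest, while each other array held 5 to 14 of either. The median absolute difference of a member from the WT mean was 0.24 on KO replicate 1, 0.13 on KO replicate 2 and 0.096 on KO replicate 3. Over all named genes these medians were 0.25, 0.13 and 0.13. Without KO replicate 1, 43 of 70 members were higher in KO, 18 had non-overlapping groups, where 26.5% of named genes did, and 1 lay beyond 0.5, Dennd3. Across the 15 or 16 other settings run per member, 21 of the 70 kept the sign of their difference, and 49 changed it in at least 1. These settings were not all separate checks. The replicate block could not change a difference, and the authors' values equalled those without background correction within 5e-05.

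**Figure D4:**
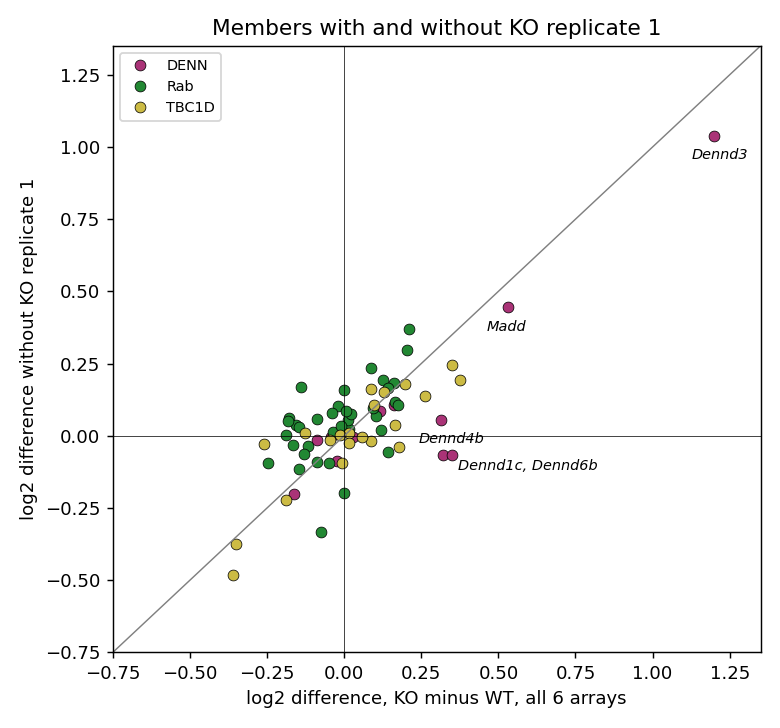
Log2 difference, KO minus WT, of the 70 members with all 6 arrays (x axis) and without KO replicate 1 (y axis), coloured by family, with a line of equality. Dennd3 (1.20 and 1.04) and Madd (0.53 and 0.44) lie near the line, while Dennd6b, Dennd1c and Dennd4b fall to near zero on the y axis.

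Probes of one gene often disagreed for such small differences. Of 28 members with more than 1 detected probe, 15 had probes of one sign and 13 did not, and the median spread between probes of a gene was 0.11 on the log2 scale. The 3 Rab7 probes, the 3 Rab1b probes and both Tbc1d2b and Tbc1d7 probes kept one sign. The fourth Dennd6a probe gave 0.10 where the others gave -0.04, -0.08 and -0.35.

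Other genes of the Rab cycle were read from a list of 98 exchange factors outside the DENN genes above, GTPase-activating proteins, escort proteins and effectors, of which 87 had a probe and 68 were tested. None passed the test (0 of 68, background 0.0792%). Of the 68, 11 had an unadjusted p under 0.05 in limma, 9 higher and 2 lower, where 8.78% of named genes had. The 11 include Lrrk1 and Eea1, which passed the detection filter only through 1 group, so their p is no test. In all, 44 were higher and 24 lower, or 64.7% higher, against 50.4% of named genes. With median scaling 18 were higher, and 45 lay above the median of all features. The median log2 difference was 0.07, or 0.03 without KO replicate 1. Groups did not overlap in 18, or 26.5%, against 16.3% of named genes. The gap between them ran from 0.005 for Rab3gap1 to 0.68 for Lrrk1 on the log2 scale. Rabgef1, Rilpl1, Vps41 and Rabgap1 had gaps of at most 0.0124. Lrrk1 and Eea1 are among the 18 too. Whether the list differs from named genes was not tested.

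Lrrk1, which encodes a kinase that phosphorylates Rab7, was detected on 0 of the 3 WT arrays and 3 of the 3 KO arrays. Its normalised log2 intensity was 4.72, 4.78 and 4.66 in WT and 5.80, 5.45 and 5.6 in KO, at least 1.25-fold higher in KO. It passed the detection filter only through the KO arrays, so no p-value is given for it, and the counts over the list include it. Rin3, which encodes a Rab5-family exchange factor, measured 9.95, 9.85 and 9.82 in WT and 10.57, 10.23 and 10.27 in KO, a log2 difference of 0.48 ± 0.13 (SE). Trappc10, a subunit of the TRAPPII exchange complex for Rab1 and Rab11 proteins, measured 10.52, 10.12 and 10.51 in WT and 10.96, 10.80 and 10.73 in KO, a difference of 0.45 ± 0.15. Evi5, which encodes a TBC-domain protein that acts on Rab11, was at 0.38 ± 0.12, and Micall1, a Rab8 and Rab35 effector gene of recycling tubules, at 0.38 ± 0.12. Rab3ip, which encodes the Rab8 exchange factor Rabin8, measured 6.79, 6.49 and 6.76 in WT and 6.09, 5.87 and 6.41 in KO, a difference of -0.55 ± 0.17. In each of these 6 genes the groups were separate, and the adjusted p of the 5 other than Lrrk1 lay between 0.316 and 0.422.

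Promoters were read from RefSeq (GRCm38.p6) as windows of 250 bases before to 50 after a gene's start, and 61 of the 70 members had 1 or more, 79 windows in all. They were searched on both strands for 3 words that HES-type proteins are known to bind, namely CACGCG, the E-box word CACGTG and, as the N-box, the word CACNAG. Matches of different words may share letters. CACGCG was in 16.5% of the members' windows, 17.5% of the windows of all named genes tested and 9.27% of all windows. CACGTG was in 16.5%, 10.3% and 7.15%, and CACNAG in 43.0%, 40.1% and 42.5%. Dennd3 had no window and was not searched, and both Madd windows held none of the 3 words. The windows of Rab12, as the substrate of DENND3, and of Tbc1d2, with 3 CACGCG matches the most of any member, are shown 5′ to 3′ with matches in capitals. Rab12 (chr17:66519621-66519920, minus strand) has 1 CACGCG on the opposite strand, written CGCGTG, from base -87 and 1 CACNAG from base -221. Tbc1d2 (chr4:46650150-46650449, minus strand) has CACGCG from bases -240 and -133 and, on the opposite strand, from base -44.
Rab12: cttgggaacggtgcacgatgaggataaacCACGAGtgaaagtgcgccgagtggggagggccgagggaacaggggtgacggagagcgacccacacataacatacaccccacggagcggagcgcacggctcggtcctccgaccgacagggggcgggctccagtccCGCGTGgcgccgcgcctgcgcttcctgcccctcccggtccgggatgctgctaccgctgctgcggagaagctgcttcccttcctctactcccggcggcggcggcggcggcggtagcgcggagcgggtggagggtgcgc
Tbc1d2: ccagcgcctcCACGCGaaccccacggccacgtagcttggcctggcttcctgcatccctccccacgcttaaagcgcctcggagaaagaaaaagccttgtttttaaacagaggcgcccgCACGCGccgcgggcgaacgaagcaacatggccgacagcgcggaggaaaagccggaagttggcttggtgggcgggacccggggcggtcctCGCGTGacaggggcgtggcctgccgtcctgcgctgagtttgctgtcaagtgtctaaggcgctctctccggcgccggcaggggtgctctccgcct
A match is a word in the sequence and does not show binding. Rab12 differed by -0.18 and Tbc1d2 by 0.26 on the log2 scale, and neither passed the test.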

How the data were processed

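Total RNA of 3 WT and 3 KO samples was read on 1-colour Illumina bead arrays. Per the labels' protocols, 10 ng of RNA was amplified and biotin-labelled, which can distort relative signals. The deposited intensities were linear and neither background-subtracted nor normalized, and a deposited detection p-value stood beside each. A second deposited table held the authors' log2 values, which equalled the quantile-normalized log2 intensities within 5e-05. It was not centred. The scanner and its software: not given in the sources used here.

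Intensities were corrected and quantile-normalized with neqc in limma 3.58.1 (R 4.3.3; offset 16), so a shift of most genes one way could not be seen. Symbols came from the platform annotation, checked against RefSeq, in which 34807 of 34885 probes with 1 symbol matched; 18 probes had several symbols and 10378 none here. Of 45281 probes, 16287 had a detection p under 0.05 on at least 3 arrays. The brightest such probe per gene gave 8836 named genes, beside 2405 unnamed probes. KO was compared with WT by lmFit and eBayes with no covariates, adjusted by Benjamini-Hochberg over all 11241 features. "At least" marks a fold against the detection limit. Levels of different probes were not compared. Steps were tested on simulated data. The number of arrays limits precision.

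Named genes were all tested DENN genes, Rab12, the reported DENN substrates, the 8 Rab and 8 Tbc1d genes of smallest p, 6 of the list of other Rab-cycle genes, and Hes1. Other members were named to account for them, and those outside this rule that carry values were picked after the values were seen. Members and lists were chosen with earlier results of these data known. Roles were grouped from general knowledge. Alternatives covered background correction, scaling, filter, probe choice, replicate block, array weights, threshold and leaving out each array.

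Replicate numbers are shared between groups, but the labels tie no number to a litter, batch or day. Deviations of same-numbered arrays correlated at -0.098, -0.27 and 0.15, so the numbers were not taken to pair the samples.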

Additional observations from a re-analysis of the deposited data

How the results depend on the processing

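Of the 69 members other than Dennd3, 0 passed the threshold under any alternative run. Over all 70 the count was 0, and it was 1, Dennd3 alone, with no background correction, normexp with offset 50, median scaling, the authors' log2 values, detection p under 0.01 on all arrays, array weights or an adjusted p under 0.1, and 0 to 1 over the fits without 1 array, the 1 being without KO replicate 1. Because the families were chosen for that value, these counts are no test of it. The list of other Rab-cycle genes gave 0, and 1 with array weights or an adjusted p under 0.1. That 1 was Lrrk1, which passed the detection filter only through the KO arrays, so it is no test either. The cause of these differences was not tested. Over all features 7 passed, against 36 with no background correction or the authors' values, 30 with normexp, 23 with median scaling, 17 with the stricter detection filter, 119 with array weights, 23 at an adjusted p under 0.1, and 2 to 9 over the fits without 1 array. With the replicate block 2 features and 0 members passed. Not every array correlated best with its own number, which cannot show whether the numbers pair the samples. With median scaling, which moved the median of all features to -0.17, 14 of 70 members were higher in KO and 35 lay above that median. Dim probes limit the genes of low intensity. With the authors' values Madd and Tbc1d9 differed by 0.21 and 0.10 on the log2 scale, and Lrrk1, of the list, by 0.28. Over all settings run, Tbc1d22b, Rab39b and the list gene Rab3ip came as close to zero as -0.13, 0.05 and -0.22. Their unnormalised intensities lay between 167.7 and 244.5. No group has more than 3 arrays, so no array was tested as an outlier.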

Other observations

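Other genes of late endosomal fusion and of Rab recycling, chosen after their values were seen, were also read. The 4 listed genes for HOPS and CORVET subunits, the tethers that dock endosomes and lysosomes, all had higher KO means, although Vps41 was at -3.05e-05 with median scaling. Vps39 differed by 0.32 ± 0.11, Vps11 by 0.30 ± 0.11, Vps18 by 0.22 ± 0.12 and Vps41 by 0.19 ± 0.12 (SE, log2). In 3 of the 4 the groups did not overlap, as in 16.3% of named genes, although the gap for Vps41 was 0.009. None passed the test (smallest adjusted p 0.443 in limma), and without KO replicate 1 they measured 0.27, 0.23, 0.29 and 0.13. On the unnormalised scale Vps11 ran from 524.8 to 550.7 in WT and from 498.9 to 629.4 in KO, which overlap.

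Gdi2, which extracts Rab proteins from membranes, had one of the lowest differences on the list, -0.49 ± 0.30 (SE, log2). Its unnormalised intensity was 361, 311.9 and 333.5 in WT and 179, 304.3 and 304.7 in KO, and without KO replicate 1 the difference was -0.12. Eea1, the early endosome tether recruited by Rab5, measured 5.54, 5.67 and 5.41 in WT and 4.82, 5.16 and 5.31 in KO. It was detected on 3 WT arrays and 1 KO array and passed the detection filter only through WT. No p-value is therefore given for it, and the counts over the list include it.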
